A study of Mus musculus with 12 samples.

Results

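The genes described here are Gfap, Vim and Nes, which encode intermediate filament proteins, and Serpina3n, Cd44, Timp1, S1pr3, Steap4 and Lcn2, which are used as markers of reactive astrocytes. They were chosen by name, as every probe set annotated to 1 of these 9 genes, and they stand among 17097 genes named on the array. Together they hold 18 probe sets. Where a gene had several, the brightest on average was used, and the others are given beside it. A filter on low values left 8 of the 9 genes to be tested, of 13853 in all, since Nes did not pass it. Of those 8, 7 lay above the filter on all 12 arrays, and Steap4 did so on 9.

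Expression was measured on 12 Affymetrix arrays of the mouse hippocampus, 3 in each of 4 groups. The hippocampus was taken from the side on which the amygdala had been injected, with 0.3 µg of kainic acid (KA) in 0.2 µl. KA activates kainate-type glutamate receptors and sets off status epilepticus, a seizure that does not end by itself. The groups are KA at 14 d, control at 14 d, KA at 8 h and control at 8 h. Controls had the same injection with 0.2 µl of vehicle alone, so an injection is common to all 4 groups. An intraperitoneal dose of the benzodiazepine lorazepam (6 mg/kg) followed KA by 40 min, and whether controls also had it is not stated in the labels. The labels give no strain, age or sex. All titles open with the word Input, left unexplained there, so whether the RNA was the whole of the tissue's or the starting fraction of another experiment is not known. Nor do they tie arrays to separate animals, and the p-values therefore cover the spread between arrays, which may be technical.

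Astrocytes respond to injury and seizures by becoming reactive. They then build up intermediate filaments, chiefly glial fibrillary acidic protein and vimentin, with nestin in some cells, and make surface receptors and secreted proteins that resting astrocytes hold at low levels. The response is known to be driven in part by cytokines that signal through the receptor chain gp130 and the transcription factor Stat3. Several of the genes are not particular to astrocytes, since microglia, endothelial cells and infiltrating leukocytes can also make Vim, Cd44, Timp1 or Lcn2. In whole tissue, more cells of a type and more RNA per cell cannot be told apart.

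Some arrays stood apart before any of these genes was considered. On the 3 KA arrays at 8 h, the X-inactivation RNA Xist measured 7.39 to 8.71 (log2), against 4.19 to 4.67 on the 9 other arrays. The Y-linked Eif2s3y measured 5.57 to 6.83 on the same 3 arrays, against 7.46 to 8.09 on the others. These Eif2s3y values were still above the background described below, and whether the 3 arrays hold RNA of both sexes was not tested. Sex, or a mix of sexes, and KA cannot be told apart at 8 h, which bears most directly on Timp1, an X-linked gene. The titles were followed for time. A second time label of the arrays titled as 8 h gives 8, 9 and 10 h for control replicates 1 to 3. For KA replicates 1 to 3 it gives 11, 12 and 13 h, so it climbs evenly in the order of the arrays. If that label is right, time and KA cannot be told apart there. Markers of the tissue were present, with all 10 neuron markers and all 13 astrocyte markers looked for above the filter. Background was taken on each array as the mean of 8 control probe sets rich in G and C, and it lay between 4.09 and 4.68 (log2). The probe sets used differ in base composition from these, so this background is approximate.

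Promoter sequence is shown for 4 of the genes. Gfap and Vim are filament genes that rose at both times. Steap4 and Lcn2 were both high on KA 14 d replicate 2, as on control 8 h replicate 1. The stretches run from 150 bases before the annotated start to 20 bases after it, 5′ to 3′ on the strand of the gene, from RefSeq (GRCm38.p6). Capitals mark a match to the Stat motif TTCNNNGAA or to the TATA motif TATAAA, each searched on both strands.
Gfap, chr11:102897181-102897350, minus strand: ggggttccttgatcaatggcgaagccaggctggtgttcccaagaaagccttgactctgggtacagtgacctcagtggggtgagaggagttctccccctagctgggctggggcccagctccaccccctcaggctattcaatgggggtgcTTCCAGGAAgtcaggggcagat
Vim, chr2:13574161-13574330, plus strand: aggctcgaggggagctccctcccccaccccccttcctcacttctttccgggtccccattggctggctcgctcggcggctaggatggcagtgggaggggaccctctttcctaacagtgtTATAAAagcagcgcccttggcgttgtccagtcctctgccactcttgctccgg
Steap4, chr5:7960322-7960491, plus strand: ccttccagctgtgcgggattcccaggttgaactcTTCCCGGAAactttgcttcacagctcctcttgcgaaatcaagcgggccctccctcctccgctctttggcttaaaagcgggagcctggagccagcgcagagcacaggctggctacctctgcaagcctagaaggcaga
Lcn2, chr2:32387720-32387889, minus strand: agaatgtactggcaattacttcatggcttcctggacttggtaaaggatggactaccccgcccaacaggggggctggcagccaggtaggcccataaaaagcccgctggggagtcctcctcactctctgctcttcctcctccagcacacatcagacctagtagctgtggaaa

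All 9 genes had a promoter in the RefSeq table, read as windows of 300 bases of which 250 precede the start. The Stat motif was found in 2 of the 9, at positions -2 to 7 of Gfap and -116 to -108 of Steap4, counted from the annotated start with no position 0, against 8.30% of the 32851 promoters in the table. The TATA motif lay at -32 to -27 of Vim and, on the opposite strand, at -215 to -210 of Steap4, and 13.6% of promoters held it. The AP-1 motif TGANTCA was found in 0 of the 9 windows and in 7.81% of all promoters. A kappa-B motif was also searched, and is not marked in the stretches above. It was found in 2 of the 9 windows, those of Vim and Steap4, and in 8.46% of all promoters. These matches are a description of the letters in the windows.

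Gfap, the main filament of astrocytes, was higher after KA at both times. At 14 d it measured 11.79, 11.52 and 11.88 (log2) on the KA arrays, against 9.93, 9.89 and 10.14 on the control arrays. At 8 h the values were 11.28, 10.93 and 11.32 with KA, against 10.36, 10.01 and 10.12 in controls. The groups did not overlap at either time, and every KA array at 14 d lay above every KA array at 8 h. Gfap rose 3.36-fold at 14 d (log2 change 1.75 ± 0.13, SE, n = 3 per group, limma adjusted p = 4.35e-07). It rose 2.03-fold at 8 h (1.02 ± 0.13, limma adjusted p = 4.43e-05).

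Vim encodes vimentin, a filament of astrocytes and of many non-neuronal cells. Its values at 14 d were 8.29, 8.26 and 8.63 with KA, against 5.91, 6.35 and 6.71 in controls, and at 8 h they were 8.00, 7.98 and 8.19 with KA, against 6.66, 6.52 and 6.27 in controls. Here too no KA array overlapped a control array, and the KA arrays at 14 d all lay above those at 8 h. Vim rose 4.20-fold at 14 d (log2 change 2.07 ± 0.16, limma adjusted p = 1.25e-06) and 2.98-fold at 8 h (1.57 ± 0.16, limma adjusted p = 7.48e-06).

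Nes, which encodes nestin, a filament of progenitors and of some reactive astrocytes, was not measured above background. Its only probe set lay between 3.67 and 4.10 on the 12 arrays, at or below the background of each array it was read on. Without the filter, Nes differed by 0.09 ± 0.11 (log2) at 14 d and by 0.14 ± 0.11 at 8 h (limma adjusted p = 0.867 and 0.527 over 17097 genes). A level this close to background sets no limit on a change of nestin itself.

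**Figure D1:**
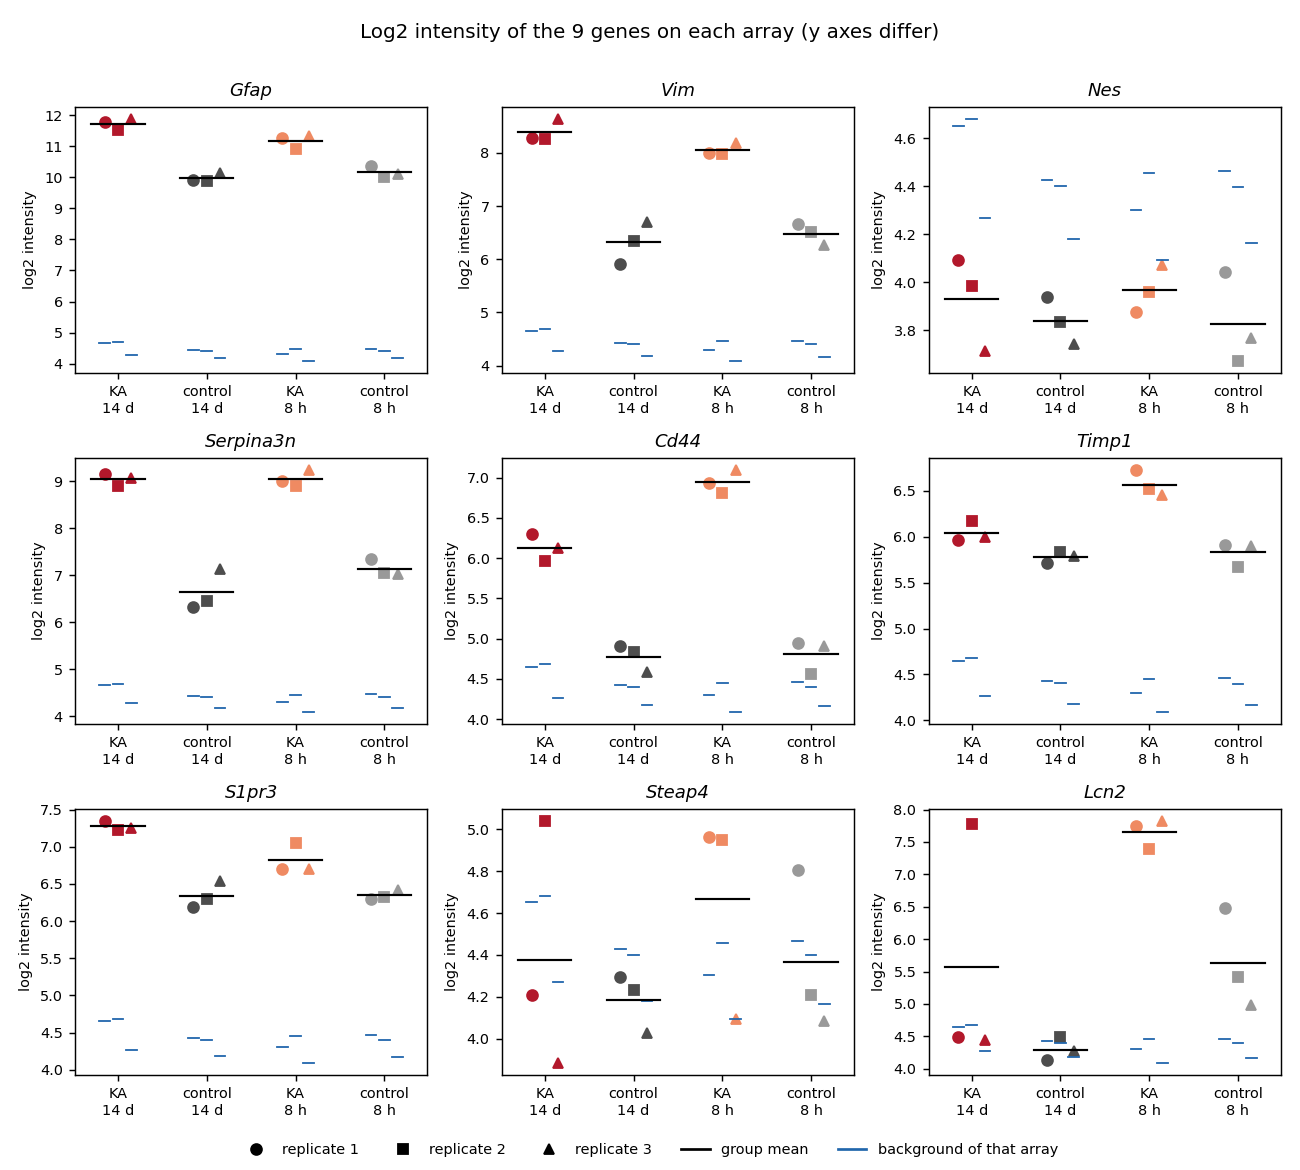
Log2 intensity (y axis, scaled for each panel) of the 9 genes on each of the 12 arrays, by group (x axis). Symbols are replicates, black lines group means and short blue lines the background of each array. The KA arrays of Gfap, Vim, Serpina3n and Cd44 lie clear of the control arrays at both times, Nes lies below background, and Lcn2 at 14 d is high on replicate 2 alone.

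Among the secreted proteins, Serpina3n, a serine protease inhibitor, was higher after KA at both times. It measured 9.14, 8.90 and 9.07 on the KA arrays at 14 d, against 6.32, 6.44 and 7.13 in controls. At 8 h it measured 8.99, 8.90 and 9.23 with KA, against 7.33, 7.05 and 7.02 in controls. The KA means were 9.04 ± 0.13 at 14 d and 9.04 ± 0.17 at 8 h (SD, n = 3 each), while the control means were 6.63 ± 0.44 at 14 d and 7.13 ± 0.17 at 8 h. Serpina3n rose 5.30-fold at 14 d (log2 change 2.41 ± 0.17, limma adjusted p = 2.93e-07) and 3.75-fold at 8 h (1.91 ± 0.17, limma adjusted p = 1.24e-06). By size of rise it had rank 3 of the 13853 genes at 14 d and rank 51 at 8 h.

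Timp1, an inhibitor of matrix metalloproteinases, passed the test at 8 h but not at 14 d. At 14 d its values were 5.96, 6.18 and 6.00 with KA, against 5.71, 5.83 and 5.79 in controls. At 8 h it measured 6.73, 6.53 and 6.45 with KA, against 5.91, 5.67 and 5.90 in controls. KA arrays lay above control arrays without overlap at both times. The difference at 14 d was 0.27 ± 0.10 (log2, limma adjusted p = 0.220), and at 8 h Timp1 rose 1.67-fold (0.74 ± 0.10, limma adjusted p = 7.58e-05).

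Lcn2 encodes lipocalin 2, a secreted protein that binds bacterial siderophores and is induced by inflammation. At 14 d it measured 4.49, 7.77 and 4.44 with KA, against 4.13, 4.49 and 4.27 in controls. At 8 h it measured 7.74, 7.39 and 7.82 with KA, against 6.48, 5.42 and 4.98 in controls. On KA replicate 2 the level at 14 d was thus like that of the KA arrays at 8 h, whereas KA replicates 1 and 3 were close to the controls and to background, and 2 of the 3 control arrays were above it. The mean difference at 14 d was 1.27 ± 0.62 (log2, limma adjusted p = 0.429), and without KA replicate 2 it was 0.17 (adjusted p = 0.900). At 8 h, where the groups did not overlap, Lcn2 rose 4.07-fold (log2 change 2.02 ± 0.62, limma adjusted p = 0.0344).

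The call of Lcn2 at 8 h lay close to the threshold, with a spread estimated over the arrays of both times. Without KA 14 d replicate 2 its adjusted p was 9.10e-05, and with only the 8 h groups in the fit 0.000518. The call was lost without KA 8 h replicate 1, 2 or 3 (adjusted p = 0.0958, 0.0604 and 0.0825) and without control 8 h replicate 2 or 3 (adjusted p = 0.102 and 0.137), while the change stayed between 1.70 and 2.45 (log2) over all single arrays left out.

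Of the surface proteins, Cd44, a receptor for hyaluronan, was higher at both times and more so at 8 h. It measured 6.30, 5.96 and 6.12 on the KA arrays at 14 d, against 4.91, 4.83 and 4.59 in controls. At 8 h it measured 6.93, 6.81 and 7.09 with KA, against 4.95, 4.56 and 4.91 in controls. No arrays overlapped between KA and control, and every KA array at 14 d lay below every KA array at 8 h. Cd44 rose 2.55-fold at 14 d (log2 change 1.35 ± 0.12, limma adjusted p = 7.12e-06) and 4.41-fold at 8 h (2.14 ± 0.12, limma adjusted p = 1.77e-08).

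S1pr3, a receptor for sphingosine 1-phosphate that couples to G proteins, showed smaller rises. Its values at 14 d were 7.35, 7.22 and 7.26 with KA, against 6.19, 6.29 and 6.54 in controls, and at 8 h they were 6.70, 7.06 and 6.70 with KA, against 6.30, 6.33 and 6.42 in controls. KA and control arrays did not overlap at either time. S1pr3 was 1.91-fold higher at 14 d (log2 change 0.93 ± 0.11, limma adjusted p = 0.000104) and 1.38-fold higher at 8 h (0.47 ± 0.11, limma adjusted p = 0.00730).

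Steap4, a metalloreductase that reduces iron and copper, did not pass the test at either time. At 14 d it measured 4.21, 5.04 and 3.89 with KA, against 4.29, 4.23 and 4.03 in controls, and at 8 h 4.96, 4.95 and 4.09 with KA, against 4.81, 4.21 and 4.08 in controls. The groups overlapped at both times, and only 4 of the 12 arrays lay above their own background. The differences were 0.19 ± 0.27 (log2) at 14 d and 0.30 ± 0.27 at 8 h (limma adjusted p = 0.856 and 0.538).

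**Figure D2:**
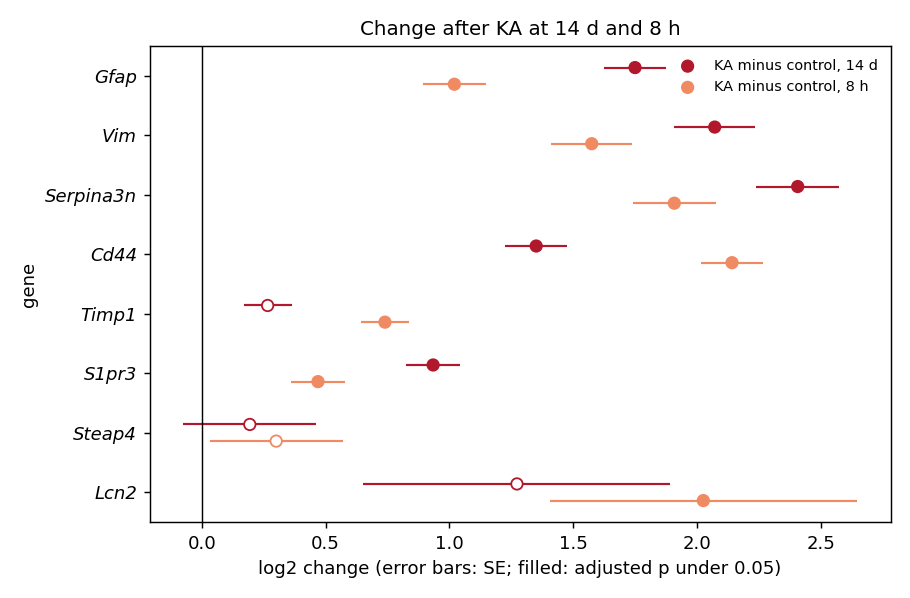
Log2 change after KA (x axis) of the 8 genes tested (y axis) at 14 d and at 8 h, with SE as error bars and filled points for an adjusted p under 0.05. Gfap, Vim, Serpina3n and S1pr3 have the larger value at 14 d, and Cd44, Timp1, Steap4 and Lcn2 at 8 h.

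Over the 8 genes tested, 5 rose at 14 d, where 1.99% of all genes rose, and 7 rose at 8 h, where 7.92% did. None fell, where 0.57% of all genes did at 14 d and 9.55% at 8 h. KA arrays lay above control arrays without overlap for 6 of the 9 genes at 14 d and 7 at 8 h, against 8.02% and 14.8% of all genes tested. For KA arrays at 14 d against KA arrays at 8 h, as given for Gfap, Vim and Cd44, no such share was counted. The median log2 change of the 8 genes was 1.31 at 14 d and 1.30 at 8 h, beside medians of -0.01 and -0.02 over all genes. The genes were chosen as known markers of this response, so these counts describe them and are not independent evidence of a direction.

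Whether the change after KA differed between the times was tested as a difference of changes, 14 d minus 8 h, where 5.52% of all genes passed. The KA arrays at 8 h enter it, so sex and time cannot be told apart in this difference. For Gfap it was positive (2.45% of all genes passed with a positive difference), at 0.73 ± 0.18 (log2, limma adjusted p = 0.0253), and for Cd44 negative (3.06% of all genes passed so), at -0.79 ± 0.18 (limma adjusted p = 0.0136). The other genes did not pass. Timp1 differed by -0.47 ± 0.14 (limma adjusted p = 0.0595). With a block for the replicate number, shared by all 4 groups, the limma adjusted p of Timp1 was 0.0428. S1pr3 differed by 0.46 ± 0.15 (limma adjusted p = 0.104), Vim by 0.50 ± 0.23 (limma adjusted p = 0.279) and Serpina3n by 0.50 ± 0.24 (limma adjusted p = 0.288). The difference for Lcn2 was -0.75 ± 0.88 (limma adjusted p = 0.769), and it turned on single KA arrays at 14 d, being -1.85 without replicate 2 (adjusted p = 0.0119), -0.21 without replicate 1 (adjusted p = 0.953) and -0.19 without replicate 3 (adjusted p = 0.938). Without control 8 h replicate 1 it was -1.18 (adjusted p = 0.627), and without control 8 h replicate 3 -0.43 (adjusted p = 0.898).

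Single arrays decided other calls of this difference. Without control 14 d replicate 3, Serpina3n passed at 0.75 (adjusted p = 0.0191) and S1pr3 at 0.57 (adjusted p = 0.0473). S1pr3 also passed without KA 8 h replicate 2, at 0.58 (adjusted p = 0.0255). Timp1 passed without KA 14 d replicate 2 or KA 8 h replicate 3, at -0.54 and -0.53 (adjusted p = 0.0298 and 0.0483). For Vim the difference was 0.29 without control 14 d replicate 1 (adjusted p = 0.549). The call for Gfap ended when certain single arrays were left out, while the difference stayed between 0.61 and 0.83 (log2) over all single arrays left out. Those arrays were KA 14 d replicate 1 (adjusted p = 0.0668), control 14 d replicate 1 or 2 (adjusted p = 0.0651 and 0.0751), KA 8 h replicate 2 (adjusted p = 0.0547) and control 8 h replicate 1 (adjusted p = 0.0719). At the probe set used, Cd44 kept its call with each of the 12 arrays left out.

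Between the control groups, 0 of the 8 genes passed in limma, where 1.8% of all genes did, and 2 (Serpina3n and Lcn2) had an unadjusted p under 0.05. Serpina3n was lower in the controls at 14 d than in those at 8 h, by -0.50 ± 0.17 (log2, limma adjusted p = 0.152), and without control 14 d replicate 3 it passed, at -0.75 (adjusted p = 0.0122). Lcn2 differed in the same direction, by -1.33 ± 0.62 (limma adjusted p = 0.335). Without KA 14 d replicate 2, which enters only through the spread, the adjusted p of Lcn2 was 0.0155. Gfap, Vim, Cd44, Timp1, S1pr3 and Steap4 differed by between -0.18 and -0.01 (log2).

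**Figure D3:**
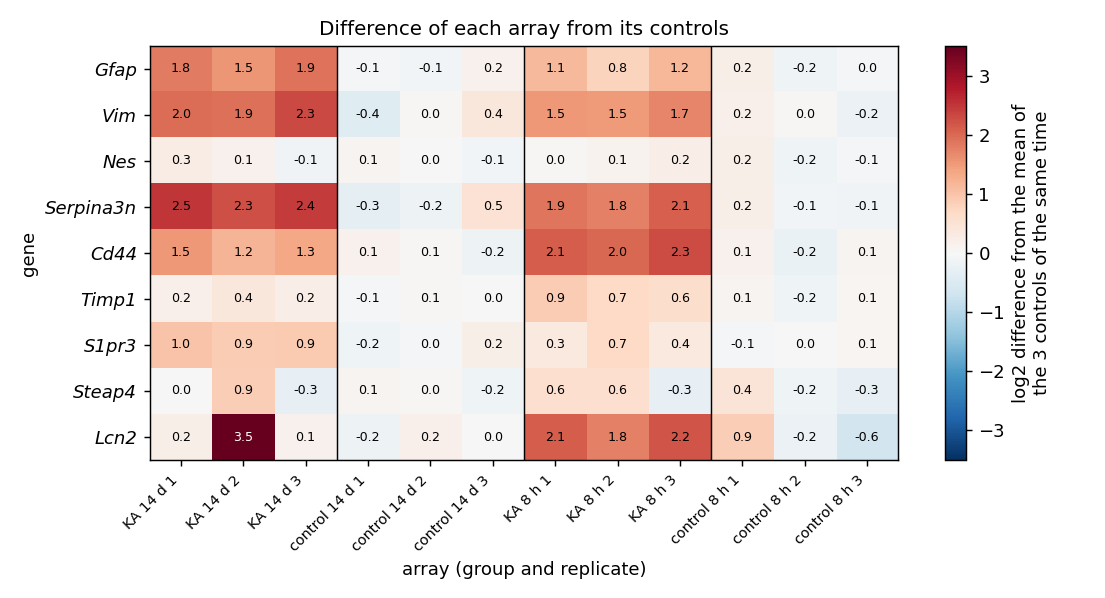
Log2 difference of each array (x axis) from the mean of the 3 control arrays of the same time, for the 9 genes (y axis), as colour and printed value. At 14 d Lcn2 is far above the controls on KA replicate 2 (7.77) and near them on replicates 1 and 3 (4.49 and 4.44), and Steap4 is highest on the same KA array.

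Lcn2 and Steap4 departed on the same array. On KA 14 d replicate 2, Lcn2 was 3.30 (log2) above the mean of the other 2 KA arrays, rank 1 of the 13853 genes tested. Steap4 was 0.99 above its mean on those arrays, rank 3 among upward departures and rank 22 by size in either direction. On those 2 arrays Steap4 lay at or below background, so the size of its departure is not known. On replicate 2 it measured 5.04, against a background of 4.68, the highest of the 12 arrays. The filament genes did not follow on that array, where Gfap at 11.52 and Vim at 8.26 were the lowest of their 3 KA arrays. Control 8 h replicate 1 was high for both genes as well, against the mean of the other 2 controls of that time. The differences were 1.28 for Lcn2 and 0.66 for Steap4, which lay at or below background on those 2 controls. With KA 14 d replicate 2 left out, Gfap, Vim, Serpina3n, Cd44 and S1pr3 changed by 1.85, 2.14, 2.48, 1.43 and 0.96 (log2) at 14 d and still passed.

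Probe sets of the same gene were compared next, in a fit over all probe sets above the filter. Of the 18 probe sets, 16 passed the filter, and 11 were higher at 14 d and 14 at 8 h. In that fit, 1.28% of probe sets rose at 14 d and 7.48% at 8 h. All 3 probe sets of Gfap rose, by 1.75, 2.34 and 2.26 (log2) at 14 d and by 1.02, 1.44 and 1.82 at 8 h. Those of Vim rose by 2.07, 1.68 and 2.58 at 14 d and by 1.57, 1.25 and 1.94 at 8 h. S1pr3 rose at both of its probe sets, by 0.93 and 0.97 at 14 d and by 0.47 and 0.65 at 8 h.

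The 4 probe sets of Cd44 fell on both sides of the threshold. The one used, 1434376_PM_at, and 1423760_PM_at rose at both times. All control arrays of 1423760_PM_at were at or below background, so it was at least 2.31-fold higher at 14 d and at least 2.72-fold higher at 8 h. At 1452483_PM_a_at the change was 0.37 ± 0.10 (log2) at 14 d, which did not pass (limma adjusted p = 0.110), while at 8 h it passed (limma adjusted p = 0.000226) with a rise of at least 1.62-fold, since 1 of the 3 controls was above background. At 1443265_PM_at neither change passed, with 0.12 ± 0.09 at 14 d and 0.21 ± 0.09 at 8 h (limma adjusted p = 0.703 and 0.135). Cd44 is known to be spliced into many isoforms, and which of them each probe set reads is not given in the sources used here.

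The difference of changes between the times was read at the other probe sets too. For Gfap it was 0.73, 0.89 and 0.45 (log2, limma adjusted p = 0.0321, 0.0480 and 0.334). For Cd44 it was -0.79 at the probe set used (adjusted p = 0.0183), and -0.09 at 1443265_PM_at (limma adjusted p = 0.821). At 1423760_PM_at it was -0.15 (limma adjusted p = 0.752) and at 1452483_PM_a_at -0.36 (limma adjusted p = 0.225). At these 2 probe sets the controls of at least 1 time lay at or below background on most arrays. The size of the difference there is therefore not known. Only the probe set used passed for Cd44. With the mean over all 4 probe sets, dim ones included, the difference for Cd44 was -0.35 (adjusted p = 0.0451) and its changes were 0.84 at 14 d and 1.19 at 8 h. The second probe set of Steap4 did not pass the filter. The probe set used for Vim is of a type that can read related sequences (x_at), and 1450641_PM_at, with changes of 1.68 and 1.25 given above, is not.

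**Figure D4:**
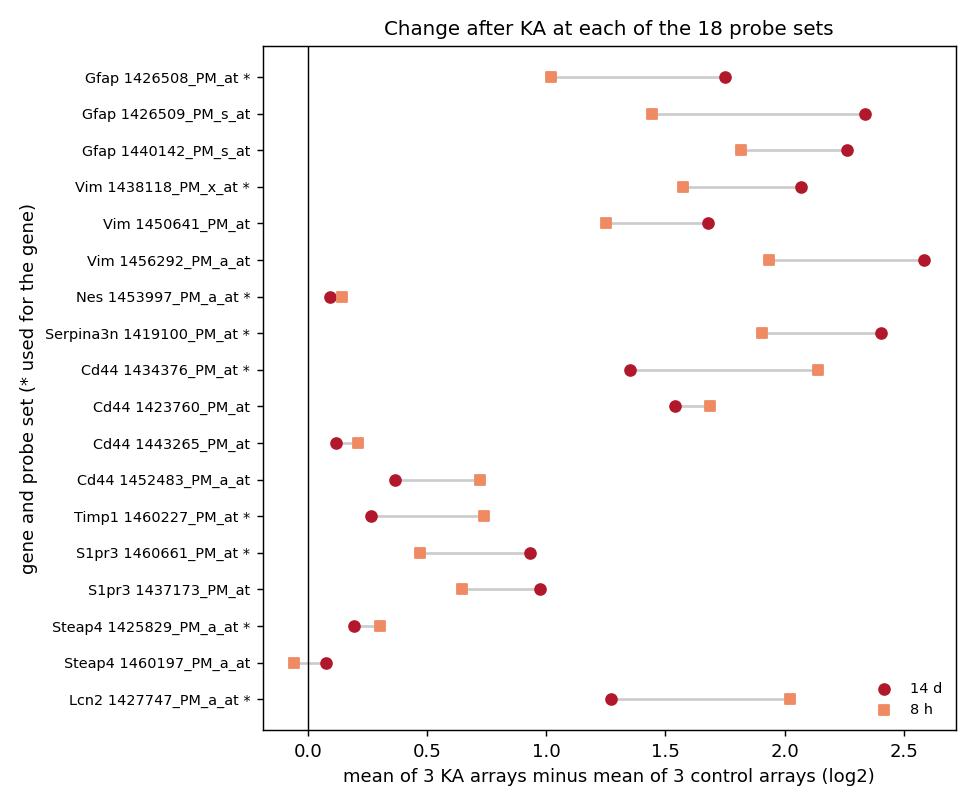
Mean of the 3 KA arrays minus mean of the 3 control arrays (log2, x axis) at 14 d and at 8 h for each of the 18 probe sets (y axis). Every probe set of Gfap, Vim and S1pr3 is further from 0 at 14 d, while those of Cd44 spread from near 0 to 2.14.

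Other genes of the same response were read from lists that were chosen with earlier results of these data known. Of 5 other genes known as pan-reactive astrocyte genes, 2 rose at 14 d and 4 at 8 h, with median log2 changes of 0.44 and 0.73. Hspb1, a small heat shock protein, rose 4.71-fold at 8 h and differed by 0.39 ± 0.11 (log2) at 14 d (limma adjusted p = 0.0755). Osmr, the oncostatin M receptor, rose 1.88-fold at 14 d and 4.55-fold at 8 h. Cp, the ferroxidase ceruloplasmin, rose 1.66-fold at 8 h and differed by 0.33 ± 0.13 (log2) at 14 d (limma adjusted p = 0.275).

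Genes known from astrocytes after inflammation (A1-type) and after ischaemia (A2-type) were read as 2 lists. Of 9 A1-type genes measured, 3 rose at 14 d and 1 at 8 h, with median log2 changes of 0.43 and 0.06. H2-D1, a class I histocompatibility antigen, was 2.90-fold and Psmb8, an immunoproteasome subunit, 1.996-fold higher at 14 d, and Srgn, a proteoglycan core protein of haematopoietic cells, was 2.87-fold higher at 8 h. The other 4 probe sets of H2-D1 differed by between -0.07 and 0.42 (log2) at 14 d. Their means ran from 3.77 to 4.52, under the highest background of an array (4.68). Levels this close to background set no limit on a change. The probe set used for H2-D1 is of the type that can read related sequences (x_at). Of 9 A2-type genes, 3 rose at 14 d and 6 at 8 h, with medians of 0.21 and 0.91. Tgm1, a transglutaminase, rose 1.40-fold at 14 d and 2.68-fold at 8 h, and S100a10, a calcium-binding family member, rose 1.41-fold and 2.49-fold at those times. The difference of changes passed upward for 3 and downward for 1 of the A1-type genes, and downward for 5 of the A2-type genes.

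Of 11 other intermediate filament genes measured, 0 passed at 14 d in limma (2 at an unadjusted p under 0.05) and 2 rose at 8 h (5 unadjusted in either direction), with medians of 0.05 and 0.01 (log2). Those were Ina, the neuronal filament internexin, which was 1.998-fold higher, and Lmna, a nuclear lamin, 1.41-fold higher. The other 3 probe sets of Lmna differed by between 0.10 and 0.18 (log2) at 8 h. Their means ran from 4.3 to 5.8, so the dimmest lay near background.

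Of 11 genes of gp130 cytokines, their receptors and Stat3, 1 rose at 14 d and 5 at 8 h, with medians of 0.11 and 0.31 (log2). Osmr rose at both times, as given above. Stat3 rose 1.71-fold at 8 h and differed by 0.38 ± 0.10 (log2) at 14 d (limma adjusted p = 0.0599). Lif, a cytokine of this family, rose by at least 1.93-fold at 8 h, where 0 of the 3 controls were above background, and at 14 d it was at or below background on all 6 arrays. Of the 3 probe sets of Lif, 1 did not share this rise (-0.02, log2). Its mean of 3.37 lay below the background of every array, so it sets no limit on a change.

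Genes that act with the surface and secreted proteins were read in the same way. Of 9 partners of Cd44 and hyaluronan, 1 rose at 14 d and 2 at 8 h. Msn, the linker moesin, rose 1.56-fold at 14 d and 2.14-fold at 8 h, and the related linker Ezr rose 1.56-fold at 8 h. Of 7 genes of the Timp family and matrix proteases, 0 passed at 14 d (1 at an unadjusted p under 0.05) and 2 rose at 8 h. Both were proteases of the Adamts family, Adamts1 (by at least 1.98-fold, 2 of the 3 controls being above background) and Adamts4 (2.15-fold higher).

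Of 9 sphingosine 1-phosphate genes, 1 rose at 14 d, while 2 rose and 2 fell at 8 h. Sgpl1, the lyase that breaks the lipid down, rose 1.38-fold at 14 d and 1.43-fold at 8 h. The kinases that make it went opposite ways at 8 h, with Sphk1 2.74-fold higher and Sphk2 3.29-fold lower at the probe sets used. At their other probe sets they differed by 0.26 and 0.01 (log2). Of 10 iron and siderophore genes, 1 rose at 14 d, while 2 rose and 1 fell at 8 h. Ftl1, a ferritin chain, rose 1.45-fold at 14 d and 1.32-fold at 8 h, Hmox1, a haem oxygenase, rose 2.52-fold at 8 h, and Slc22a17, a receptor for lipocalin 2, was 1.23-fold lower at 8 h. Of 12 relatives of Serpina3n, 2 were measured, and 0 passed at either time (0 at an unadjusted p under 0.05).

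**Figure D5:**
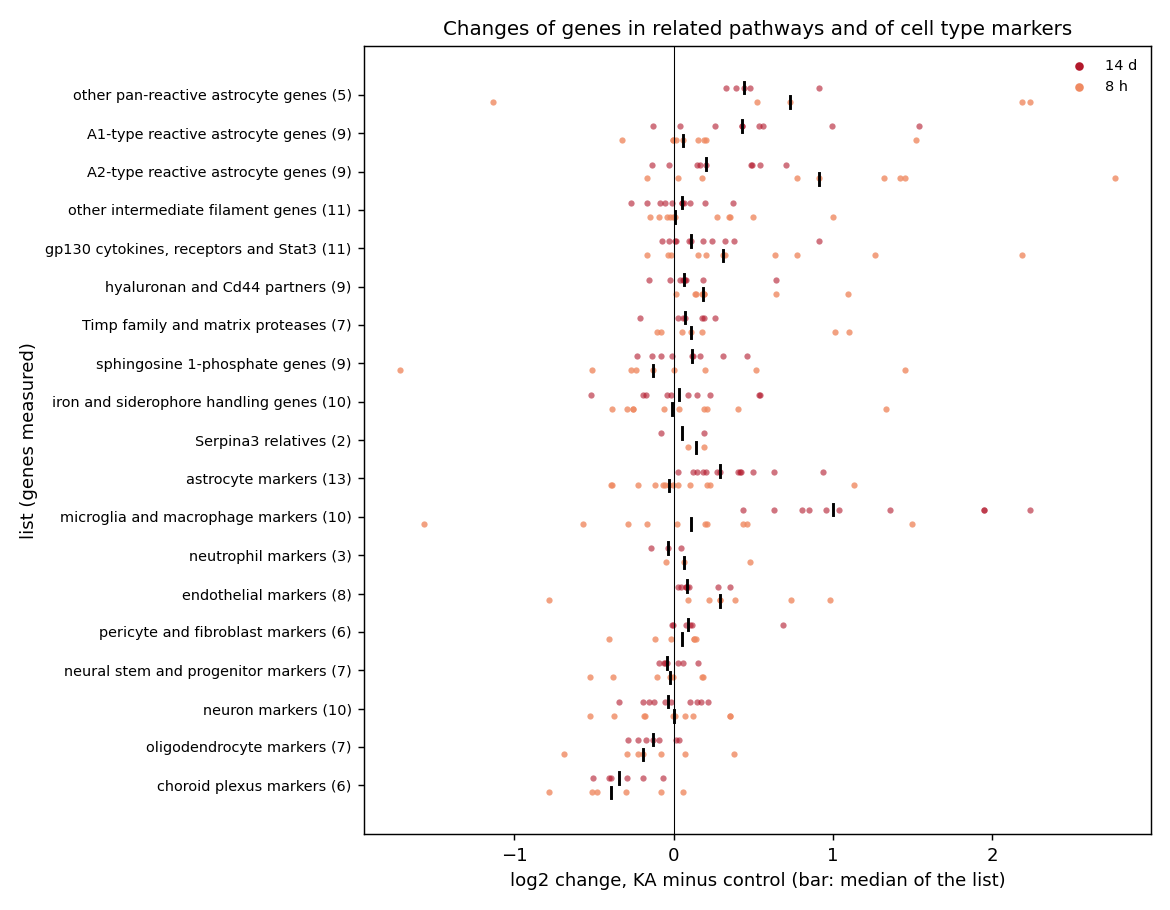
Log2 change after KA (x axis) of each measured gene of 19 lists (y axis, with the number measured) at 14 d and at 8 h, with a bar at each median. Microglia and macrophage markers lie to the right at 14 d, with a median of 1.00, and on both sides of 0 at 8 h.

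Markers of cell types moved beside these genes. Of 13 astrocyte markers not used to choose the genes, 6 rose at 14 d, while 1 rose and 2 fell at 8 h, with medians of 0.29 and -0.03 (log2). Aqp4, the water channel of astrocyte endfeet, rose 1.91-fold at 14 d and differed by 0.21 ± 0.11 (log2) at 8 h (limma adjusted p = 0.218). Sox9, a transcription factor of astrocytes, rose 1.41-fold at 14 d and 2.19-fold at 8 h. Its other 2 probe sets differed by 0.29 and 0.15 (log2) at 14 d and by 0.45 and 0.22 at 8 h. The one at 0.15 and 0.22 averaged 3.62, below the background of every array, so it sets no limit on a change. The mean level of the 13 astrocyte markers was 8.46 to 8.73 on the KA arrays at 14 d, against 8.22 to 8.31 in controls. At 8 h it was 8.26 to 8.31 with KA, against 8.22 to 8.28 in controls.

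Microglia and macrophage markers rose in 9 of 10 cases at 14 d, while 3 rose and 3 fell at 8 h, with medians of 1.00 and 0.11 (log2). C1qa, a complement chain made by microglia, was 4.72-fold higher at 14 d, and Cd68, a lysosomal protein of phagocytes, 3.86-fold higher at 14 d and 2.82-fold at 8 h. The mean level of the list lay between 7.71 and 7.84 on the KA arrays at 14 d, against 6.50 to 6.60 in controls, and between 6.21 and 6.32 with KA at 8 h, against 6.17 to 6.32 in controls. None of its measured genes was at or below background on all arrays. The part of these cells in the rise of Vim, Cd44, Serpina3n or S1pr3 was not tested.

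Of 8 endothelial markers, 0 passed at 14 d (2 at an unadjusted p under 0.05), while 3 rose and 1 fell at 8 h. The adhesion proteins Cdh5 and Pecam1 were 1.97-fold and 1.66-fold higher at 8 h. Of 6 pericyte and fibroblast markers 1 rose at 14 d (Col1a1, a collagen chain, 1.61-fold) and 0 passed at 8 h (1 unadjusted). Only 3 of 10 neutrophil markers passed the filter, and of these Mpo, a granule enzyme, rose 1.40-fold at 8 h and 0 passed at 14 d (0 unadjusted). Of 7 neural stem and progenitor markers, 0 passed at 14 d (0 unadjusted) and Hopx and Tubb3 fell at 8 h, by 1.30-fold and 1.44-fold. The other probe set of Hopx differed by -0.13 (log2) at 8 h. Tubb3 is also in the list of neuron markers, where its fall is counted again. Neuron markers fell in 1 of 10 cases at 14 d (Syt1, 1.27-fold) and in 2 at 8 h. Of 7 oligodendrocyte markers, 0 passed at 14 d (1 unadjusted), and at 8 h Mog was 1.61-fold lower, Sox10 1.30-fold higher and 1 other gene lower. Of 6 choroid plexus markers, 0 passed at either time (0 unadjusted). Their mean level varied within groups, from 5.60 to 7.49 on the KA arrays at 8 h and from 6.89 to 7.26 in controls. At 14 d it was 6.44 to 6.84 with KA and 6.49 to 7.53 in controls. Arrays thus differed in these markers within a group, which limits what could pass.

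The genes with the most similar pattern were found from the deviation of each array from the control mean of its time, as the root mean square of the difference between genes over the 12 arrays (log2), and this is a description. The 9 genes themselves and predicted genes were left out of the search. Nearest to Gfap were Fcrls (0.27), a receptor-like gene of microglia, and Plek (0.32), a protein kinase C substrate of blood and immune cells. Nearest to Vim were C3ar1 (0.22), the complement C3a receptor, and Cd68 (0.27), and the same 2 genes came out for Serpina3n (0.37 and 0.41). Acvr1c (0.25), an activin receptor, and Osmr (0.28) were nearest to Cd44. For S1pr3 they were Anxa5 (0.13), an annexin, and the immunoglobulin receptor Fcgr3 (0.14), and for Timp1 Lilrb4a (0.10), an inhibitory receptor of myeloid cells, and the kinase Stk40 (0.10). The nearest to Lcn2 were Osmr (0.83) and C3ar1 (0.84), at larger distances. Among the 9 genes themselves, Vim and Serpina3n were 0.27 apart, so that Vim was nearer to Serpina3n than any gene outside the 9, and Gfap and Vim were 0.36 apart.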

How the data were processed

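The values are as deposited: log2 intensities that come from RMA per the submitters' processing notes, which list it beside affy with neither version nor role. No scale is stated in the table, and its range of 2.63 to 13.2 and array medians of 4.90 to 4.95 are those of RMA output. Per the labels' protocols, the amplification (22 cycles) began with 5 ng of RNA, and 8 µg of cDNA was labelled. The number of arrays limits the precision.

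The probe annotation gave 1 gene symbol to 28898 of 45037 probe sets other than controls, several to 551 and none to 15588. Symbols were checked by gene identifier (GRCm38.p6). A gene was tested where at least 3 arrays exceeded their own 30th percentile (4.08 to 4.15). limma 3.58.1 in R 4.3.3 fitted 4 group means over the 12 arrays (8 residual degrees of freedom), with two-sided tests, Benjamini-Hochberg adjustment over 13853 genes and calls under 0.05. For folds given as "at least", arrays of the dimmer group at or below background were set to it. The fit was tested on simulated data.

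The genes and the 19 lists (198 entries, 152 measured) were chosen with earlier results of these data known. All 9 genes were named whatever their result, as were up to 3 called members of each list by adjusted p (2 for markers) and the 2 nearest genes. Members of lists named beyond this were picked with their values in view. Groups share replicate numbers. Deviations of KA and control arrays of the same number correlated at 0.164, 0.0684 and 0.463 at 14 d and at 0.155, 0.138 and 0.413 at 8 h. The labels pair no arrays. Some arrays of different number correlated more, such as KA 14 d replicate 2 with control 14 d replicate 1 (0.349). The third arrays also correlated across times, KA at 8 h with KA at 14 d (0.526) and control with control (0.401). These correlations therefore do not show that KA and control arrays were paired. Alternatives covered the filter, probe set, scaling, moderation, weights, block and arrays left out.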

Additional observations from a re-analysis of the deposited data

Results flagged for a closer look

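The change after KA differed between the times for 2 of the genes, by the test of the difference of changes itself. For Gfap it was larger at 14 d, by 0.73 (log2). For Cd44 it was smaller at 14 d, by -0.79 (log2) at the probe set used. The difference did not pass at the other probe sets of Cd44, nor at every probe set of Gfap. The call for Gfap also ended when certain single arrays were left out. Since the KA arrays at 8 h differ from all others in sex-linked RNA, sex and time cannot be told apart here.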

How the results depend on the processing

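The calls at 14 d (5 genes) were the same in number under every alternative, and those at 8 h stayed at 6 or 7. Lcn2 was the gene lost at 8 h, also with no filter (adjusted p = 0.051), with a trended, robust prior (0.145) and without the third arrays (0.127), and over all alternatives its adjusted p ran between 9.1e-05 and 0.145. For the difference of changes, 1 to 4 genes passed with single arrays left out, 6 with array weights and 4 without the third arrays. That of Gfap also missed with the mean of its probe sets (adjusted p = 0.0503). Between the controls, 0 to 1 passed with single arrays left out, 2 with array weights, and 1 both with only the groups compared and without the third arrays. Leaving out the third arrays was chosen after seeing the data, and limma's array weights did not reach their convergence tolerance.

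Over all genes, 354 were called at 14 d, 2420 at 8 h, 764 for the difference and 249 between controls. With all probe sets tested these were 551, 4843, 1478 and 445, where more features were tested. Array weights gave 2099 at 14 d, 2168 for the difference and 1336 between controls, and the groups compared alone gave 543 between controls. With single arrays left out the counts ran from 196 to 457 at 14 d, 508 to 902 for the difference and 86 to 421 between controls. In a fit with a block for the replicate number, shared by all 4 groups, they were 599, 3134, 1214 and 570. Beside Timp1, the block changed no call of the 8 genes.

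Signs turned only for values that had not passed. For Steap4, arrays left out gave -0.14 to 0.44 at 14 d, and -0.44 to 0.14 for the difference, which was 0.0125 with the mean of its probe sets. The difference for Lcn2 was 0.21 without the third arrays. Between controls, arrays left out gave -0.35 to 0.0481 for Vim, -0.15 to 0.0657 for Cd44, -0.11 to 0.0676 for S1pr3 and -0.32 to 0.0369 for Steap4. Array weights gave 0.095 for Cd44 and 0.0239 for Timp1, and Cd44 was 0.12 without the third arrays. With X and Y genes left out, Timp1 has no value and 6 genes passed at 8 h. Causes were not tested. Values near background (Nes, Steap4, and Lcn2 in the 14 d controls) limit what could be seen.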

Other observations

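Other genes departed on KA 14 d replicate 2, where Lcn2 and Steap4 were high. Against the mean of the other 2 KA arrays, H2-Ab1, a class II histocompatibility chain, was 1.12 (log2) higher and Lyz2, the lysozyme of myeloid cells, 0.87 higher. H2-Ab1 measured 5.84, 6.54 and 5.02 on KA replicates 1, 2 and 3, so that replicate 3 lowers the mean of the others. The controls at 14 d measured 4.80, 5.35 and 4.46 for it. Larger departures ran the other way, with Prss23, a serine protease, at -2.30, Nptx2, a neuronal pentraxin, at -1.85, and the activity-induced transcription factors Fosb and Fos at -1.65 and -1.34. For Fosb and Fos the mean of the others holds replicate 3, where both were high (8.87 and 8.26, against 6.42 and 5.54 on replicate 1 and 6.00 and 5.56 on replicate 2). Over the 13853 genes, 19 differed there by more than 1 (log2), against 4 on replicate 1 and 23 on replicate 3, where Fos differed most (2.71). On control 8 h replicate 1, the other array high for Lcn2 and Steap4, 12 genes did, and Cxcl10, an interferon-induced chemokine, differed most (2.79).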
